A study of Rattus norvegicus with 27 samples.

Results

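The Hox genes of the HoxA, HoxB, HoxC and HoxD clusters were followed through 3 culture stages of rat Schwann cells, the glia that ensheath the axons of peripheral nerves. Members were all genes of the cell mRNA table whose name is Hox, a cluster letter and a number, which gave 25 of 17315 genes. RefSeq (GRCr8) lists 39 Hox genes, and the table held 4 of 11 for HoxA, 7 of 10 for HoxB, 7 of 9 for HoxC and 7 of 9 for HoxD; the other 14 were not analysed here. Primary rat Schwann cells were bought and used at passages 3 to 5. RNA was sequenced from 3 replicates per stage, as mRNA from the cells and as miRNA and lncRNA from the small extracellular vesicles (EVs) that they released, giving 27 libraries.

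Undifferentiated cells were kept without dibutyryl cyclic AMP (dbcAMP), a cell-permeable form of the second messenger cyclic AMP, and their medium is not described further in the labels. For the differentiated stage, DMEM with 1% exosome-depleted serum and 1 mM dbcAMP was given for 72 h. Dedifferentiated cells had the same 72 h of dbcAMP and then 72 h in a complete medium with 10% exosome-depleted serum, forskolin (an activator of adenylyl cyclase) and 10 ng/mL of neuregulin, a Schwann cell mitogen. dbcAMP, forskolin, serum and growth factors therefore changed together, and their parts in a difference cannot be told apart. Withdrawal below means removal of dbcAMP into a medium with forskolin, not removal of every cyclic AMP stimulus. The labels call the replicates biological but do not say that they came from separate cultures or animals, so p-values measure the spread between these libraries. In a bulk sample, fewer cells of a type and less RNA per cell cannot be told apart.

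Hox genes encode homeodomain transcription factors that give cells their position along the head-to-tail axis. Within a cluster the genes lie in the order in which they are used along the body: low paralogue numbers act in the hindbrain and neck, high numbers in the trunk, tail and distal limb. Genes of the same number in different clusters are paralogues, Pbx, Meis and Pknox proteins are their DNA-binding partners, Polycomb and Trithorax proteins hold the clusters closed or open, and retinoic acid is a classic inducer of the low-numbered genes.

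Cell mRNA libraries held 10058735 to 16212278 estimated counts, of which 748 to 1349 fell on Hox genes. Values are given as CPM, counts scaled to a common library total, and 3 counts corresponded to 0.185 to 0.298 CPM. All 8 Schwann cell markers in the table had at least 3 counts in every library. Of the fibroblast markers, Lum was at 0 in all 9 libraries and Dcn did not exceed 0.884 CPM, and the summed list, nearly all of it Col1a1 and Col1a2, was at 24400 to 29130 CPM in undifferentiated cells, 12010 to 15680 CPM with dbcAMP and 16040 to 19580 CPM after its withdrawal. Col3a1 and Twist2 of that list were instead higher with dbcAMP than without it, at 39.5 to 64.7, 88.9 to 94.9 and 103.9 to 225.5 CPM for Col3a1 and at 0 to 0.982, 1.62 to 2.71 and 0.301 to 0.795 CPM for Twist2. The summed pericyte and smooth muscle markers, nearly all of it Pdgfrb, were at 124 to 155, 542 to 810 and 323 to 346 CPM in the same order. Acta2 of that list was instead lowest with dbcAMP, at 2.49 to 3.94, 0 to 0.442 and 3.31 to 10.5 CPM. Perineurial markers, nearly all of them Itgb4 and Slc2a1, summed to 133 to 178, 233 to 333 and 279 to 352 CPM. Of the same list, Cldn1 did not exceed 0.226 CPM and Lypd2 was at 0 in all 9 libraries. Neuronal markers summed to at most 0.516 CPM and leukocyte markers to at most 5.25 CPM. The part of these shifts in the Hox results was not tested.

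Between 18 and 21 Hox genes had at least 1 count in a library. After the low-count filter, which asked for 0.772 CPM in 3 libraries, 15 members were tested among 10372 genes: Hoxa2, Hoxa9, Hoxb3, Hoxb4, Hoxb5, Hoxb7, Hoxc4, Hoxc5, Hoxc8, Hoxc9, Hoxc10, Hoxc11, Hoxd3, Hoxd4 and Hoxd9. The tested genes thus ran from the hindbrain end (Hoxa2) to the lumbar and sacral numbers (Hoxc10, Hoxc11). Of the 10 members not tested, Hoxb13 and Hoxc12 had no count in any library, which allows a level of at most 0.185 to 0.298 CPM per library. Hoxa11, Hoxd10 and Hoxd12 had a count in 1 library each, of 2, 1 and 1. Hoxb9 and Hoxd1 did not exceed 3 counts, Hoxd13 did not exceed 7, Hoxb8 did not exceed 8 and Hoxa6 did not exceed 12. At the filter's edge, Hoxa2 with 2 to 16 counts was just inside, since only its 3 undifferentiated libraries reached the limit, and Hoxa6 with 2 to 12 counts was just outside. Having passed only where it was high, Hoxa2 had to be lower elsewhere, so its calls below describe and support nothing further.

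**Figure D1:**
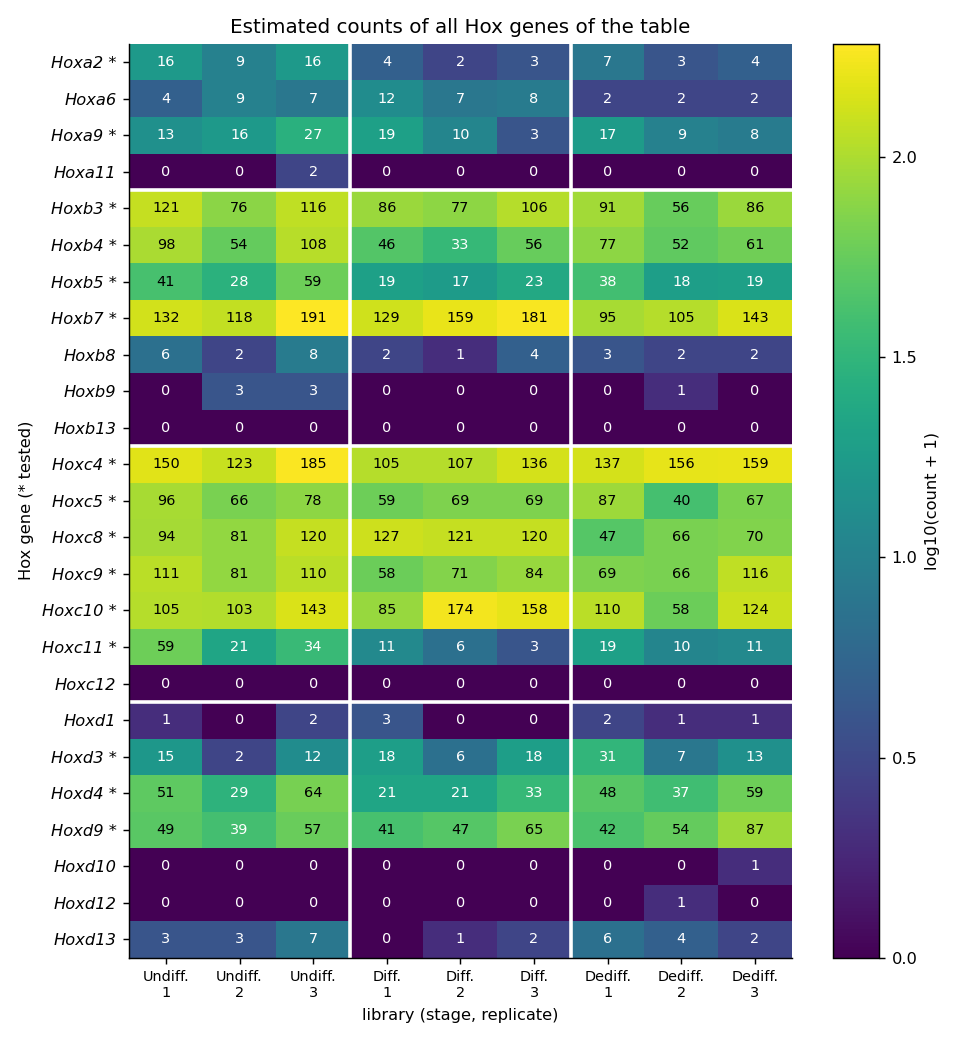
Estimated counts of all 25 Hox genes of the table in each of the 9 cell mRNA libraries; rows are ordered by cluster and paralogue number, columns by stage and replicate, colour is log10(count + 1), and stars mark the 15 genes tested. Counts are highest for Hoxb3, Hoxb4 and Hoxb7, for Hoxc4 to Hoxc10 and for Hoxd4 and Hoxd9, while Hoxb13 and Hoxc12 are at 0 throughout.

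Summed over all members, Hox expression was lower in differentiated cells in every library. The sum was 93.9, 83.0 and 88.3 CPM in undifferentiated replicates 1, 2 and 3, then 62.3, 71.7 and 66.1 CPM in differentiated and 78.7, 74.4 and 77.9 CPM in dedifferentiated cells. The 3 stages did not overlap: dedifferentiated cells stood between the others. The mean over the 3 libraries was 88.4 ± 5.46 CPM (SD, n = 3) without dbcAMP, 66.7 ± 4.75 CPM with it and 77.0 ± 2.29 CPM after withdrawal.

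The clusters did not share one pattern. HoxC held the most counts, at 46.4 ± 2.92, 36.7 ± 4.95 and 40.1 ± 0.933 CPM (SD, n = 3) in undifferentiated, differentiated and dedifferentiated cells. HoxB followed with 30.3 ± 2.83, 21.9 ± 1.04 and 24.1 ± 1.41 CPM. HoxD stood at 8.63 ± 1.41, 6.39 ± 0.783 and 11.2 ± 0.983 CPM, so that its dedifferentiated libraries were above its undifferentiated ones without overlap. Each of its tested members, Hoxd3, Hoxd4 and Hoxd9, overlapped between these stages, with edgeR adjusted p-values of 0.354, 0.833 and 0.285. HoxA held the fewest, at 3.11 ± 0.396, 1.64 ± 0.87 and 1.55 ± 0.592 CPM. These sums are descriptions without a test. A sum of CPM is not corrected for transcript length, and no transcript lengths were used, so neither clusters nor genes are ranked against each other by expression.

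The first comparison asked how the Hox genes differed after 72 h of dbcAMP. Of the 15 tested members, 7 fell and 0 rose in differentiated against undifferentiated cells (edgeR quasi-likelihood test, Benjamini-Hochberg adjusted p under 0.05): Hoxa2, Hoxb4, Hoxb5, Hoxc4, Hoxc9, Hoxc11 and Hoxd4. Leaving aside Hoxa2, these were 6 of 14. Over all genes tested, 59.6% were called, 31.7% higher and 27.9% lower. Calls were thus common in this comparison, and the Hox genes' were all in one direction. The median log2 change was -0.62 over the 15 Hox genes and 0.05 over all genes, and 12 of the 15 values were below 0. This median and this count include Hoxa2, whose lower value followed from the filter.

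Members of paralogue group 4, active in the hindbrain and upper neck, made up 3 of these calls. Hoxb4 was at 7.90, 5.19 and 7.07 CPM in undifferentiated replicates 1, 2 and 3 and at 3.39, 2.55 and 3.45 CPM in differentiated ones. Hoxd4 was at 4.11, 2.79 and 4.19 CPM, then at 1.55, 1.62 and 2.04 CPM. Hoxc4 was at 12.1, 11.8 and 12.1 CPM, then at 7.74, 8.26 and 8.39 CPM. In each of the 3 genes every differentiated library lay below every undifferentiated one. The log2 change was -1.16 ± 0.248 (SE) for Hoxb4, with an edgeR adjusted p of 0.00213. For Hoxd4 it was -1.15 ± 0.263, with an edgeR adjusted p of 0.00323. Hoxc4 changed less, by -0.62 ± 0.151 on the log2 scale, with an edgeR adjusted p of 0.00443. In RefSeq a lncRNA overlaps Hoxd4, the miRNA gene Mir10b lies within the span of Hoxd4, and Hoxc6 overlaps Hoxc4. Whether counting used the strand is not given in the sources used here, so reads of such overlapping genes may be mixed.

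Nearer the ends of the clusters, Hoxc11 and Hoxa2 had the largest fitted changes, both at low counts. Hoxc11, a lumbosacral gene, was at 4.75, 2.02 and 2.23 CPM in undifferentiated and at 0.810, 0.463 and 0.185 CPM in differentiated cells, that is 21 to 59 against 3 to 11 counts. Its log2 change was -2.70 ± 0.562, with an edgeR adjusted p of 0.0018. Hoxa2, which patterns the hindbrain and the second branchial arch, was at 1.29, 0.865 and 1.05 CPM and then at 0.295, 0.154 and 0.185 CPM. Its log2 change was -2.35 ± 0.511, with an edgeR adjusted p of 0.00237, and its differentiated libraries held only 2 to 4 counts. Neither gene's libraries overlapped between these stages. A lncRNA of RefSeq overlaps Hoxc11.

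Hoxb5 and Hoxc9 were the remaining calls. Hoxb5, which acts at neck levels and in neural crest derivatives of the gut, was at 3.30, 2.69 and 3.86 CPM and then at 1.40, 1.31 and 1.42 CPM. Its log2 change was -1.31 ± 0.345, with an edgeR adjusted p of 0.00715; its antisense lncRNA gene Hoxb5os overlaps it. Hoxc9, a thoracic gene that separates thoracic from limb-level motor neurons, was at 8.95, 7.79 and 7.20 CPM and then at 4.27, 5.48 and 5.18 CPM. Its log2 change was -0.74 ± 0.207, with an edgeR adjusted p of 0.00985. Both genes were lower in every differentiated library than in any undifferentiated one.

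The other 8 tested members did not pass the threshold. Hoxb3, a hindbrain gene, came nearest: its differentiated libraries, at 6.34, 5.94 and 6.54 CPM, all lay below the undifferentiated ones, at 9.75, 7.31 and 7.59 CPM, with a log2 change of -0.45 ± 0.197 and an edgeR adjusted p of 0.0687. Leaving aside Hoxa2, 7 of 14 members were lower without overlap, against 27.4% of all genes, and 0 were higher without overlap, against 38.9%. Hoxb7, a trunk gene, was at 11.5 ± 0.94 CPM (SD, n = 3) in undifferentiated and 11.0 ± 1.39 CPM in differentiated cells. Hoxc10, which directs lumbar identity, was at 8.46, 9.90 and 9.36 CPM and then at 6.26, 13.4 and 9.75 CPM, a spread in the differentiated cells that spanned the undifferentiated values. Hoxc8, Hoxc5, Hoxd9, Hoxd3 and Hoxa9 also overlapped between the stages, with log2 changes of 0.11 ± 0.201, -0.53 ± 0.269, -0.16 ± 0.257, 0.32 ± 0.682 and -0.97 ± 0.593. Missing the threshold does not show that these genes were equal in both stages. In RefSeq a lncRNA overlaps Hoxb3, and Hoxc6 overlaps Hoxc5, so reads may be mixed there too.

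Per the labels, the mRNA libraries numbered 3 come from a different sequencing project than those numbered 1 and 2. In the first project alone, with 2 libraries a stage, 5 of 16 members tested were called lower: Hoxa2, Hoxb4, Hoxc9, Hoxc11 and Hoxd4. Of all genes tested there, 42% were called, and 25.1% and 12.4% in the 2 comparisons that follow below. Hoxb5 and Hoxc4 had log2 changes of -1.22 and -0.65 there, with edgeR adjusted p-values of 0.0715 and 0.0526. The second project holds 1 library per stage, so nothing could be tested within it. Leaving out any 1 library kept all 7 calls.

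**Figure D2:**
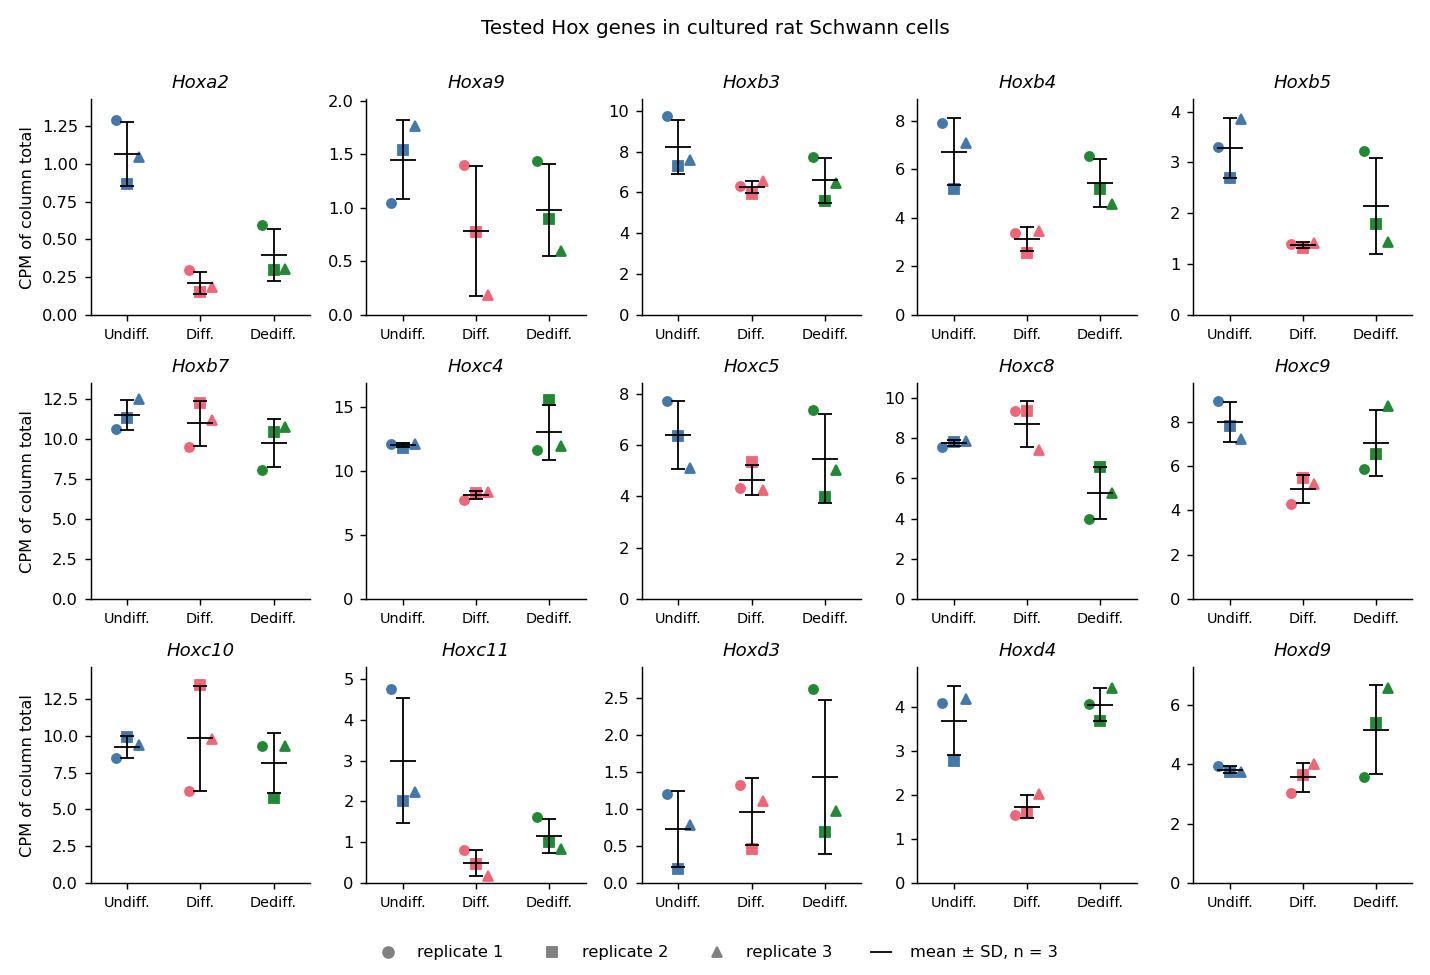
CPM of the column total for the 15 tested Hox genes by stage, each axis starting at 0; points are libraries, with the symbol giving the replicate, and bars are mean ± SD of 3 libraries. Hoxb4, Hoxc4 and Hoxd4 are low in all 3 differentiated libraries and high in the others, Hoxc8 is low in the dedifferentiated libraries, and Hoxb7 and Hoxc10 overlap in all stages.

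The second comparison asked what followed when dbcAMP was withdrawn for 72 h in complete medium. It shares the differentiated libraries with the first, so the changes of both are not independent and are set side by side without a test of the pair. Of the 15 members, 3 rose and 1 fell in dedifferentiated against differentiated cells, while 46.4% of all genes were called, 23.2% higher and 23.2% lower. The 3 that rose were Hoxb4, Hoxc4 and Hoxd4, the tested members of paralogue group 4, a grouping that was noticed after the values were seen. Hoxa4 was not analysed here. The median log2 change was 0.55 over the 15 Hox genes and -0.01 over all genes.

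In the dedifferentiated cells Hoxd4 stood at 4.07, 3.68 and 4.44 CPM, a log2 change of 1.23 ± 0.263 from the differentiated level with an edgeR adjusted p of 0.00323. Hoxc4 stood at 11.6, 15.5 and 12.0 CPM, a log2 change of 0.69 ± 0.151 with an edgeR adjusted p of 0.00369. Hoxb4 stood at 6.53, 5.17 and 4.59 CPM, a log2 change of 0.80 ± 0.251 with an edgeR adjusted p of 0.0238. All 3 genes were above their differentiated values in every library. Their dedifferentiated values overlapped the undifferentiated ones, with log2 differences of -0.36 ± 0.242 for Hoxb4, 0.07 ± 0.148 for Hoxc4 and 0.08 ± 0.250 for Hoxd4.

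Hoxc8, which acts at forelimb and thoracic levels, was the member that fell. It was at 9.36, 9.34 and 7.40 CPM in differentiated and at 3.98, 6.56 and 5.27 CPM in dedifferentiated cells. The groups did not overlap, and the log2 change was -0.71 ± 0.208, with an edgeR adjusted p of 0.0167. Undifferentiated cells, at 7.58, 7.79 and 7.85 CPM, were also above all dedifferentiated libraries, by a log2 difference of -0.61 ± 0.21 whose edgeR adjusted p was 0.0506. Hoxc8 therefore differed in order from the paralogue group 4 genes: its lowest stage was the dedifferentiated one.

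Without overlap, and leaving aside Hoxa2, 6 of 14 members were higher after withdrawal, against 28.3% of all genes, and 1 was lower, against 30.2%. Beside the 3 called genes these were Hoxb5, Hoxc9 and Hoxc11, none of which passed the threshold. Hoxc9 was at 5.85, 6.56 and 8.73 CPM in dedifferentiated cells, with a log2 change of 0.52 ± 0.209 and an edgeR adjusted p of 0.0642. Hoxc11 was at 1.61, 0.994 and 0.827 CPM, with 1.26 ± 0.61 and an edgeR adjusted p of 0.114. For Hoxb5, at 3.22, 1.79 and 1.43 CPM, replicate 1 stood far above the other two, and the log2 change was 0.65 ± 0.357 with an edgeR adjusted p of 0.161. Hoxd9, a lumbar gene, ran from 3.56 to 6.54 CPM in dedifferentiated and from 3.02 to 4.01 CPM in differentiated cells, and the 2 ranges overlapped.

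These calls depended on single libraries more often than those of the first comparison. Within the first project 1 member, Hoxc4, was called (log2 change 0.77, edgeR adjusted p = 0.0444), while 25.1% of all genes were. Hoxd4 had 1.30 there with an edgeR adjusted p of 0.0511, Hoxb4 0.99 with 0.0858 and Hoxc8 -0.82 with 0.0846. The number called was 2 without differentiated replicate 2. Hoxb4 was no longer called without differentiated replicate 2 or dedifferentiated replicate 1, at edgeR adjusted p-values of 0.0822 and 0.0773. Hoxc8 was no longer called without differentiated replicate 1, differentiated replicate 2, dedifferentiated replicate 1 or dedifferentiated replicate 3, at edgeR adjusted p-values of 0.051, 0.0519, 0.0573 and 0.0513. Hoxc4 and Hoxd4 were called without any 1 library.

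The third comparison set dedifferentiated against undifferentiated cells, which shares libraries with both others. Of all genes 29.4% were called, 16.1% higher and 13.3% lower, and of the 15 Hox genes 0 rose and 1 fell. Hoxa2, at 0.593, 0.298 and 0.301 CPM in dedifferentiated cells, was below its undifferentiated values in every library, by a log2 change of -1.46 ± 0.479 with an edgeR adjusted p of 0.0426. That call rested on 3 to 7 against 9 to 16 counts and held in 2 of 9 fits that each left out 1 library, with edgeR adjusted p-values from 0.0312 to 0.15. It was lost without dedifferentiated replicate 2 or 3, without differentiated replicate 2 or 3, and without any of the 3 undifferentiated libraries. Within the first project its edgeR adjusted p was 0.289. Its edgeR adjusted p was 0.0543 with the sequencing project as a covariate, and the DESeq2 adjusted p was 0.0968. Leaving aside Hoxa2, 2 of 14 members, Hoxc8 and Hoxc11, were lower without overlap, against 17.1% of all genes; the log2 change of Hoxc11 was -1.44 ± 0.513, with an edgeR adjusted p of 0.0568. None was higher without overlap, against 26.8%. The median log2 change was -0.29 over the 15 members, Hoxa2 included, and 0.02 over all genes.

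**Figure D3:**
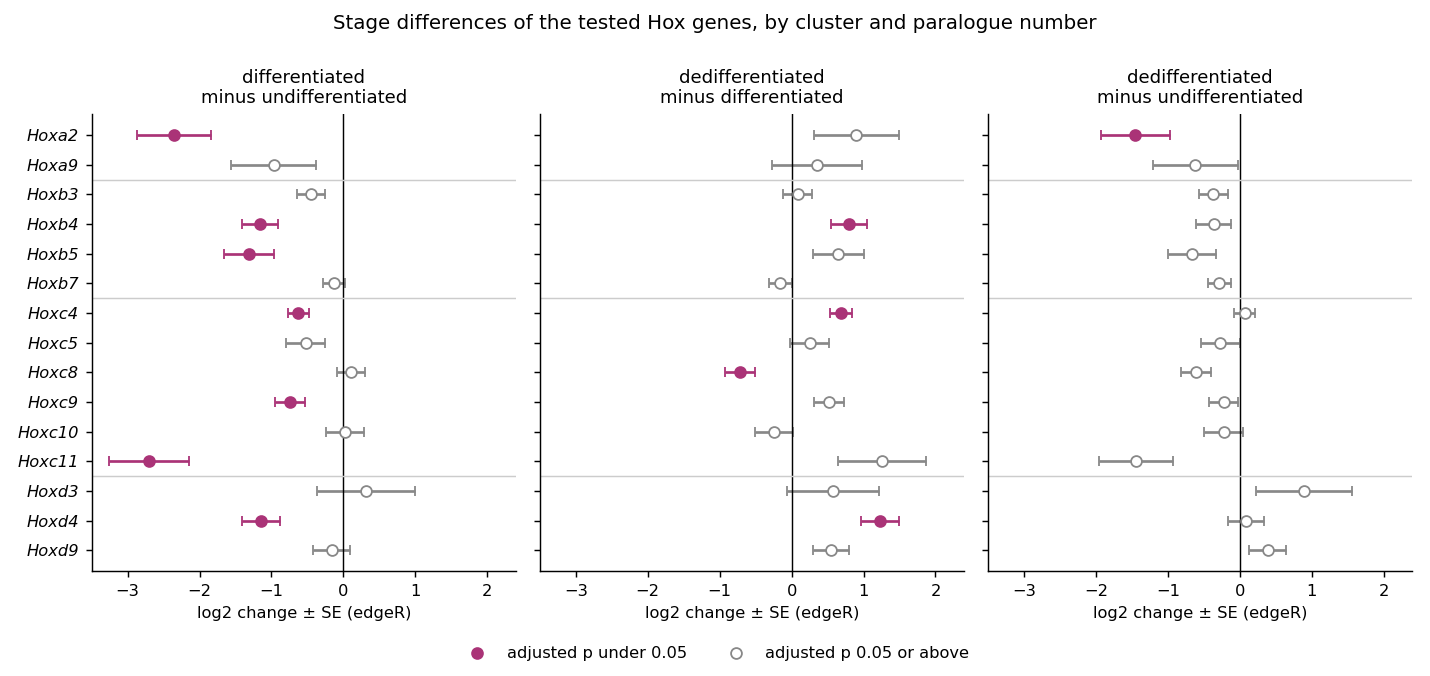
Log2 changes ± SE from edgeR for the 15 tested Hox genes, ordered by cluster and paralogue number, with grey lines between clusters and one panel per comparison; filled points have an adjusted p under 0.05. Differentiated minus undifferentiated has 7 filled points, all left of 0, dedifferentiated minus differentiated has 3 to the right (Hoxb4, Hoxc4, Hoxd4) and Hoxc8 to the left, and dedifferentiated minus undifferentiated has Hoxa2 alone.

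Promoter sequence was looked up in the RefSeq table of GRCr8, which holds the promoters of 6 of the 15 tested members. Hoxc4 and Hoxd4 are shown because they moved together in the first 2 comparisons, and Hoxa2 because it alone of the 6 held a match to the Pbx-Hox element searched below. Each is the 250 bases before the annotated start, 5′ to 3′ on the gene's own strand, with motif matches in capitals. Hoxa2 lies at chr4:82595693-82595942 on the minus strand, Hoxc4 at chr7:136048809-136049058 and Hoxd4 at chr3:80021636-80021885, both on the plus strand.
Hoxa2: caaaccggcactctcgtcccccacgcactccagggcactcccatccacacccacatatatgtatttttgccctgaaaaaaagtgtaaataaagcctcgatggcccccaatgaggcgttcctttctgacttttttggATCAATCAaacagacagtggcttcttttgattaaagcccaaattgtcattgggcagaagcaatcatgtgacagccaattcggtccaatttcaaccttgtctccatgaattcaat
Hoxc4: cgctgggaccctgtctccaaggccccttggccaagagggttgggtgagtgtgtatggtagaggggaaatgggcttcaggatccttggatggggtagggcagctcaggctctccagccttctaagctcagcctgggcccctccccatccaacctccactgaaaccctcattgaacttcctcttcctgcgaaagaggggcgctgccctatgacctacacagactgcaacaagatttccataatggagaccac
Hoxd4: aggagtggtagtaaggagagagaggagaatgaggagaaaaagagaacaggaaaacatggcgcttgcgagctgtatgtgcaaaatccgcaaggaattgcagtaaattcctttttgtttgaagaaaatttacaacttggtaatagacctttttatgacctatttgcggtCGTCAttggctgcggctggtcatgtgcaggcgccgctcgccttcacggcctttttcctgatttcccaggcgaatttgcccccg
Both strands were searched for the cyclic AMP response element TGACGTCA, for its one-sided form TGACG, which the full element contains, and for the Pbx-Hox element TGATNNAT. In Hoxd4 the capitals mark a TGACG match on the opposite strand, 83 bases before the start. In Hoxa2 they mark a TGATNNAT match on the opposite strand, 114 bases before the start, and Hoxc4 held no match in this window. Among 33469 promoters of the same length, 1.59% held TGACGTCA, 18.2% TGACG and 7.96% TGATNNAT. Among the 6 tested Hox promoters the numbers were 0, 2 (Hoxa9 and Hoxd4) and 1 (Hoxa2). A match is a description of letters, not a bound site.

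The Hox clusters also encode miRNAs, which were read in the EVs. The mature forms are printed with the seed, bases 2 to 8 that pair with target RNAs, in capitals, because 3 of them share it. From RefSeq (GRCr8), the gene of miR-10a lies between Hoxb5 and Hoxb4 on chromosome 10, and that of miR-10b within the span of Hoxd4 on chromosome 3. The gene of miR-615 lies within the spans of both Hoxc5 and Hoxc6 on chromosome 7. The miR-196 genes lie between Hoxc10 and Hoxc9 on chromosome 7 (miR-196a), between Hoxa9 and Hoxa10 on chromosome 4 (miR-196b) and between Hoxb13 and Hoxb9 on chromosome 10 (miR-196c).
miR-10a-5p: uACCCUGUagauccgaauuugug
miR-10b-5p: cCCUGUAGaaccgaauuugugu
miR-196a-5p: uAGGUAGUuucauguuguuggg
miR-196b-5p: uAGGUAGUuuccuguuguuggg
miR-196c-5p: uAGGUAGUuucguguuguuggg
miR-615: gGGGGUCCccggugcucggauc
The 3 miR-196 forms have one seed and differ at a single base, counted from 1 at the 5′ end: A12C from miR-196a-5p to miR-196b-5p and A12G to miR-196c-5p. miR-196 is known for its target sites in HoxB, HoxC and HoxA transcripts. miR-10a-5p and miR-10b-5p differ by U12A, numbered on miR-10a-5p, once aligned. The listed miR-10b-5p starts 2 bases later, which shifts its seed, although its hairpin holds the same UA before that start.

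EV miRNA libraries held 81807 to 474965 counts, all of 1 sequencing project, and the table has separate entries for mature miRNAs and hairpins. How reads that fit both were shared out is not given in the sources used here. Of 17 entries from Hox clusters, 9 were tested among 361, and 0 were called in any of the 3 comparisons (edgeR), against 0%, 3.05% and 7.48% of all entries. At an unadjusted p under 0.05 the numbers were 0, 1 and 0 in the order used above, and DESeq2 called 0, 1 and 1. The lowest edgeR adjusted p-values were 0.849, 0.25 and 0.225.

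miR-10a-5p had the most counts of them. It was at 38370, 43150 and 42570 CPM in undifferentiated, 38790, 34710 and 35050 in differentiated and 32880, 34960 and 30120 in dedifferentiated EVs. Every dedifferentiated library was below every undifferentiated one, with a log2 difference of -0.32 ± 0.288 (edgeR adjusted p = 0.517). The entry called by DESeq2 was the hairpin mir-10a, at 1516, 1564 and 1326 CPM, then 1446, 1354 and 1475, then 872, 1055 and 810 CPM. Its dedifferentiated libraries lay below all 6 others. The log2 change was -0.67 ± 0.303 on withdrawal (edgeR adjusted p = 0.25, DESeq2 adjusted p = 0.0468) and -0.63 ± 0.303 against undifferentiated EVs (edgeR adjusted p = 0.225, DESeq2 adjusted p = 0.0376). In these 2 comparisons 9.14% and 12.2% of all entries were lower without overlap.

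miR-196a-5p ran from 639 to 1059 CPM in undifferentiated, 801 to 1509 in differentiated and 453 to 1117 CPM in dedifferentiated EVs, and all stages overlapped. miR-196b-5p overlapped between all stages too, at 103 to 208, 68.3 to 112 and 43.1 to 122 CPM. miR-196c-5p reached 7 counts in 1 library and at most 1 in the others. For miR-10b and miR-615 nearly all counts were on the hairpin: the mature miR-10b-5p had 0 to 18 counts per library and its hairpin 53 to 450, and mature miR-615 had 0 to 17 and its hairpin 829 to 3211. Hairpin mir-10b was at 807 to 1103 CPM in undifferentiated, 646 to 1098 with dbcAMP and 566 to 899 CPM after withdrawal, and hairpin mir-615 ran from 4557 to 14780, 6760 to 14490 and 6935 to 9155 CPM; both overlapped between all stages. Mature levels of both can therefore not be read from these entries alone. The host-cluster miRNA genes Mir10a, Mir10b, Mir196a, Mir196b, Mir196c and Mir615 were listed at 0 in the cell mRNA table, which was not made from small RNA.

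**Figure D4:**
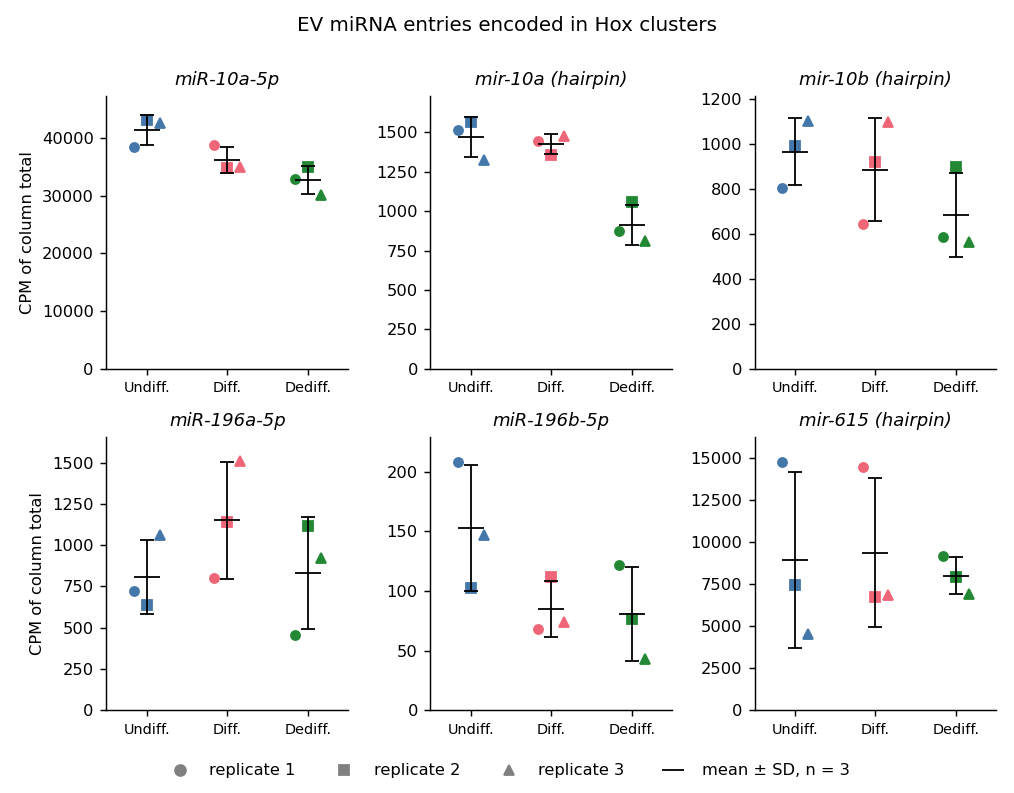
CPM of the column total for 6 EV miRNA entries encoded in Hox clusters, by stage, each axis starting at 0; points are libraries, with the symbol giving the replicate, and bars are mean ± SD of 3 libraries. Hairpin mir-10a is at 810 to 1055 CPM in dedifferentiated EVs and at 1326 CPM or more in all others, while the miR-196 and mir-615 panels overlap between stages.

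The EV lncRNA libraries held 111341 counts in all, too few for these genes. Hotairm1 and Hoxaas3, lncRNAs of the HoxA cluster, had 0 counts in 9 libraries, which allows up to 26.9 CPM over their pooled counts. Hoxb5os, antisense to Hoxb5, had 8 counts in 6 libraries and at most 2 in one.

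Genes of the Hox cofactors of the Pbx, Meis and Pknox families were counted next. The 8 counted here were all tested, and 2 rose and 4 fell in differentiated against undifferentiated cells, where 31.7% of all genes rose and 27.9% fell. The higher call of Pbx3 was lost without undifferentiated replicate 1 or differentiated replicate 3, at edgeR adjusted p-values of 0.0518 and 0.054. That of Pknox2, called lower, was lost without undifferentiated replicate 3 or differentiated replicate 2, at 0.0611 and 0.065. Meis2 was at 53.0, 59.8 and 55.5 CPM in undifferentiated and at 12.9, 20.1 and 16.4 CPM in differentiated cells, a log2 change of -1.83 ± 0.156 with an edgeR adjusted p of 2.93e-06. Its libraries did not overlap between these stages. Meis3 changed by -1.01 ± 0.111 and Meis1 by -0.84 ± 0.182 on the log2 scale, with edgeR adjusted p-values of 1.94e-05 and 0.00241. Pbx4 went the other way, with 0, 8 and 10 counts in undifferentiated and 40, 62 and 59 in differentiated cells. Its log2 change was 2.92 ± 0.594, with an edgeR adjusted p of 0.00155. No undifferentiated library of Pbx4 reached the filter's 0.772 CPM, so it passed only through the stages where it was high. Its higher calls against undifferentiated cells, included in the counts here and below, therefore describe and support nothing further.

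After withdrawal 4 cofactor genes rose, namely Meis1, Meis2, Meis3 and Pbx2, and 0 fell, against 23.2% of all genes in each direction. The call of Meis1 (log2 change 0.54 ± 0.184, edgeR adjusted p = 0.0332) was lost without differentiated replicate 1 or 2 or dedifferentiated replicate 1 or 2, at edgeR adjusted p-values from 0.0731 to 0.11, and that of Pbx2 (0.33 ± 0.0891, edgeR adjusted p = 0.0111) without differentiated replicate 3, at 0.0531. Meis3 rose from 15.0, 17.9 and 17.1 CPM to 25.9, 24.9 and 28.0 CPM, a log2 change of 0.67 ± 0.111 with an edgeR adjusted p of 0.000692. Against undifferentiated cells 2 of the 8 genes rose and 2 fell, beside 16.1% and 13.3% of all genes. The 2 that were lower were Meis2 (log2 change -1.24 ± 0.153, edgeR adjusted p = 0.000172) and Meis3 (-0.34 ± 0.109, edgeR adjusted p = 0.0386). Leaving out undifferentiated replicate 1 or 2, differentiated replicate 3 or any 1 dedifferentiated library ended the call of Meis3, at edgeR adjusted p-values from 0.0559 to 0.0926. Within the first project 4, 2 and 1 cofactor genes were called in the 3 comparisons. Dedifferentiated against undifferentiated, 2 were called without dedifferentiated replicate 2 and 1 without dedifferentiated replicate 3.

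**Figure D5:**
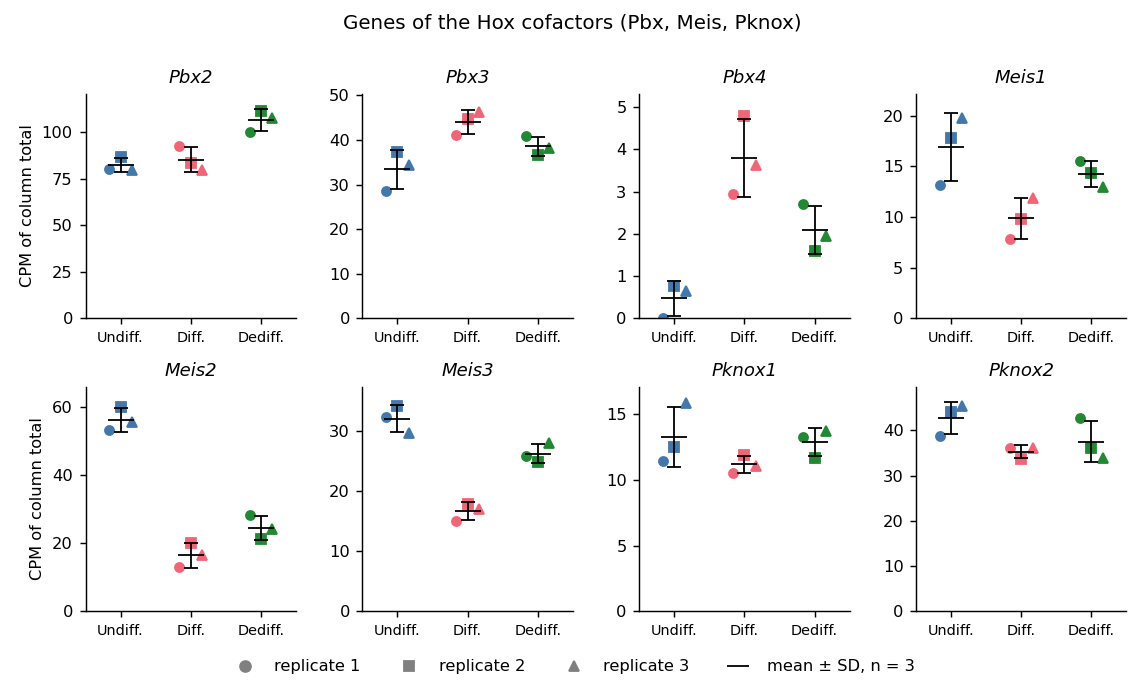
CPM of the column total for 8 Hox cofactor genes by stage, each axis starting at 0; points are libraries, with the symbol giving the replicate, and bars are mean ± SD of 3 libraries. Meis2 and Meis3 are lowest in the 3 differentiated libraries, and Pbx4 is lowest in the undifferentiated ones.

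Of 27 listed Polycomb and Trithorax genes, 20 were tested; 3 rose and 7 fell with dbcAMP, against 31.7% and 27.9% of all genes, and 8 rose and 1 fell after withdrawal, against 23.2% in each direction. Phf1, a subunit that helps Polycomb complex 2 onto chromatin, was at 55.4, 62.2 and 65.2 CPM in undifferentiated, 18.6, 22.9 and 25.2 in differentiated and 59.6, 75.9 and 60.6 CPM in dedifferentiated cells. Its log2 change was -1.51 ± 0.129 and then 1.57 ± 0.129, with edgeR adjusted p-values of 2.88e-06 and 5.83e-06. Bmi1, of Polycomb complex 1, changed by -0.90 ± 0.105 and then by 0.98 ± 0.105 on the log2 scale, with edgeR adjusted p-values of 3.00e-05 and 3.45e-05. Kdm6b, a demethylase that removes the Polycomb mark, went the opposite way, at 256, 217 and 234 CPM, then 507, 500 and 419, then 236, 181 and 201 CPM. Its log2 changes were 0.95 ± 0.124 and -1.19 ± 0.124, with edgeR adjusted p-values of 7.19e-05 and 2.94e-05. Phc1, another subunit of Polycomb complex 1, changed by -0.97 ± 0.0764 and then by 0.74 ± 0.0765 on the log2 scale, with edgeR adjusted p-values of 1.57e-06 and 2.79e-05. Cbx7, which reads the Polycomb mark, was at 35.5, 59.4 and 56.5 CPM, then 25.0, 35.3 and 34.7, then 89.1, 82.1 and 87.3 CPM, so that it was highest after withdrawal. Its log2 changes were -0.73 ± 0.175 and 1.46 ± 0.175, with edgeR adjusted p-values of 0.0042 and 7.55e-05, and the first was not called in the first project alone (edgeR adjusted p = 0.0519). In these 5 genes the differentiated libraries overlapped neither other stage. Dedifferentiated against undifferentiated, 3 rose and 1 fell, beside 16.1% and 13.3% of all genes; 2 were called in the first project alone and 7 without dedifferentiated replicate 1. With library size alone as the scaling, 5 rose and 0 fell there.

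Of 18 listed retinoic acid genes, 13 were tested; 3 rose and 4 fell with dbcAMP, against 31.7% and 27.9% of all genes, and 5 rose and 4 fell after withdrawal, against 23.2% in each direction. Crabp2, which carries retinoic acid to its nuclear receptors, was at 111, 59.9 and 62.4 CPM in undifferentiated, 12.4, 4.25 and 6.42 in differentiated and 28.7, 23.9 and 25.7 CPM in dedifferentiated cells. No stages overlapped, and the log2 change with dbcAMP was -3.41 ± 0.362, with an edgeR adjusted p of 1.54e-05. Cyp26b1, which degrades retinoic acid, had 13, 23 and 32 counts in undifferentiated, 0, 1 and 0 in differentiated and 10, 2 and 4 in dedifferentiated cells, and it was called lower and then higher. The second call was lost without differentiated replicate 3 or dedifferentiated replicate 1, at edgeR adjusted p-values of 0.0561 and 0.0608. Outside the undifferentiated stage, Cyp26b1 reached the filter's 0.772 CPM only in dedifferentiated replicate 1, at 0.848 CPM. Crabp1, called lower after withdrawal, reached it only in the differentiated libraries and undifferentiated replicate 1. Both passed through the stage where they were high, so their lower calls, included in the counts here, describe and support nothing further. Dhrs3, which turns retinaldehyde back into retinol, was at 0.564, 1.54 and 2.55 CPM in undifferentiated and at 2.87, 22.4 and 4.94 CPM in differentiated cells. Its log2 change was 2.59 ± 0.723 (edgeR adjusted p = 0.00987), and 1.26 without the high differentiated replicate 2 (edgeR adjusted p = 0.0498). After withdrawal 3 genes of the list were called in the first project and 5 without dedifferentiated replicate 3. Dedifferentiated against undifferentiated, 1 rose and 2 fell, beside 16.1% and 13.3% of all genes; 5 were called without undifferentiated replicate 1, and 1 each in the first project and without dedifferentiated replicate 2 or 3.

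The neighbours of the clusters and other genes of axial position were counted as well, to be read beside the same shares of all genes: 31.7% higher and 27.9% lower with dbcAMP, 23.2% each way after withdrawal, and 16.1% and 13.3% between the dedifferentiated and undifferentiated stages. Of 18 genes listed as flanking the Hox clusters, 12 were tested. With dbcAMP 3 rose and 6 fell, and after withdrawal 5 rose and 3 fell. The HoxA neighbour Skap2 was at -1.40 and the HoxC neighbour Cbx5 at -0.78 on the log2 scale with dbcAMP. Hnrnpa1, another HoxC neighbour, went the opposite way. Its log2 change was 0.56 with dbcAMP (edgeR adjusted p = 0.002) and -1.085 after withdrawal (edgeR adjusted p = 4.36e-05). Within the first project 5 and 3 flanking genes were called in these comparisons, and 5 in the second without differentiated replicate 3. Dedifferentiated against undifferentiated, 1 flanking gene rose and 2 fell, and 1 was called in the first project. Of 12 position genes counted here, 4 were tested; 2 rose and 2 fell with dbcAMP, 2 rose and 1 fell after withdrawal, and 2 rose and 1 fell from the undifferentiated to the dedifferentiated stage. Egr2, which marks segments of the hindbrain and is also the master regulator of myelination in Schwann cells, was at 1.37, 14.0 and 2.62 CPM in undifferentiated, 646.6, 800.3 and 663.1 in differentiated and 175.7, 107.7 and 103 CPM in dedifferentiated cells. No stages overlapped. Its log2 change with dbcAMP was 6.90 ± 0.613 (edgeR adjusted p = 4.09e-06), and 8.33 without the high undifferentiated replicate 2. After withdrawal its log2 change was -2.43 ± 0.473, with an edgeR adjusted p of 0.00185. Hmx3, a homeobox gene of the inner ear and hypothalamus, was at 15.6, 23.7 and 24.0 CPM, then 4.57, 7.72 and 9.31, then 10.8, 18.2 and 21.1 CPM. Its undifferentiated and dedifferentiated libraries overlapped, and the differentiated ones were lower than both. The log2 changes were -1.60 ± 0.291 and 1.22 ± 0.292, with edgeR adjusted p-values of 0.000728 and 0.00617. Gdf11, a secreted signal that sets trunk and tail Hox patterns, fell from 297, 304 and 309 CPM to 103, 98.2 and 103 CPM and stood at 136, 136 and 116 CPM after withdrawal. Its log2 change with dbcAMP was -1.64 ± 0.0832, with an edgeR adjusted p of 6.76e-08, and it remained lower than in undifferentiated cells by 1.28 ± 0.0825 (edgeR adjusted p = 2.69e-06).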

How the data were processed

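The deposited cell mRNA table holds estimated counts per gene that the authors made with Salmon, per the file headers and the submitters' processing notes; fractional values, 1.2% of them, were rounded before testing, and every Hox value was already whole. The EV miRNA and EV lncRNA tables hold raw counts as deposited by the authors. The submitters' processing notes also name STAR, HISAT2 and DESeq2 1.26.0; the genome build, annotation and strand setting of the counts are not given in the sources used here. Per the labels, library kits were directional. Columns were matched to samples by library code, and replicate numbers follow the sample titles, which disagree with a suffix in the mRNA column names.

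Tests used edgeR 4.0.16 with limma 3.58.1 in R 4.3.3: the filterByExpr filter (minimum count 10), column totals as library sizes, TMM scaling, a quasi-likelihood fit over the 9 libraries of an assay without covariates, and Benjamini-Hochberg adjustment over all features tested, called under 0.05. The standard error is the size of the log2 change divided by the square root of F. CPM used column totals, without TMM. Floors are 3 counts per library and cover counting error only. The method was tested on simulated counts in which a small share of features changed, in the differentiated stage alone. Pass limits were set for the cell mRNA fit and not for the EV miRNA fit. Alternatives were other scalings and filters, DESeq2 1.42.0, a replicate block, sequencing project and leaving out each library. The members and the other gene lists were chosen with earlier results of these data known. Named genes were all Hox members and up to 4 called genes per list and comparison, those with the largest changes; a few more are named where a count or call turns on them, chosen after their values were seen. A few listed genes were left out and are not reported. A RefSeq table (GRCr8) gave positions and sequences; all 25 members matched by symbol.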

Additional observations from a re-analysis of the deposited data

How the results depend on the processing

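Hox genes called with dbcAMP numbered 7 to 8 when each library was left out. In those fits 53.1% to 61.1% of all genes were called. The shares were 37.3% to 49.3% after withdrawal and 21.4% to 29.1% between the dedifferentiated and undifferentiated stages. After withdrawal (4) the Hox genes called were 2 to 5 on leaving out a library and 1 in the first sequencing project. The fits with 5 also called Hoxa6 lower, which was not tested in the main fit. Without dedifferentiated replicate 1, Hoxc9 and Hoxd9 were called in place of Hoxb4 and Hoxc8 (edgeR adjusted p = 0.0386 and 0.0235 for Hoxc9 and Hoxd9). Dedifferentiated against undifferentiated (1), they were 0 to 2 on leaving out a library, 2 with size factors, with DESeq2 or without the 10 most abundant genes, 3 with the replicate block, and 0 without a filter, in the first project or with the libraries of 2 stages alone. There DESeq2 called Hoxc8 and Hoxc11 in place of Hoxa2 (DESeq2 adjusted p = 0.0296, 0.0376 and 0.0968), and with the sequencing project as a covariate the 1 call was Hoxc11 in place of Hoxa2 (edgeR adjusted p = 0.0399 and 0.0543). EV entries called (0) were 1 by DESeq2 after withdrawal and 1 against undifferentiated EVs. Small uncalled changes turned sign. Hoxc10 with dbcAMP (0.02) was -0.0113 with size factors, -0.0115 by DESeq2, -0.00563 without a filter, -0.015 with 2 stages and -0.0184 without the 10 most abundant genes; hairpin mir-10a (0.04) was -0.0431 with library size alone and -0.0411 with 10 counts in every library. When 1 library was left out, the log2 change with dbcAMP ran from -0.258 to 0.253 for Hoxc10, from -0.115 to 0.844 for Hoxd3 and from -0.206 to 0.0772 for mir-10a. After withdrawal it ran from -0.155 to 1.10 for Hoxa9, -0.0363 to 0.191 for Hoxb3, -0.475 to 0.0351 for Hoxc10, -0.0123 to 0.436 for Hoxc5 and -0.182 to 0.887 for Hoxd3. Against undifferentiated cells it ran from -0.106 to 0.134 for Hoxc4 and from -0.0997 to 0.181 for Hoxd4. The cause was not tested. The replicate block called 7, 5 and 3 Hox genes in the 3 comparisons, adding Hoxc11 in the second and Hoxc8 and Hoxc11 in the third. Same-numbered libraries correlated in their deviations from stage means by 0.028 to 0.304. Of these pairs 7 of 9 were over 0.1, among them all 3 of the first comparison, where the block changed no Hox call. Differently numbered libraries correlated by -0.0837 on average. Subtracting stage means of 3 libraries brings that negative sign with it, so it is not separate evidence. The titles do not say that a number marks a shared culture, so the numbers were not taken as pairs. Retinoic acid genes called with dbcAMP (7) were 4 with 10 counts in every library, and dedifferentiated against undifferentiated (3) they were 5 with the replicate block. Depth limits members under about 10 counts.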
